A study of Mus musculus with 4 samples.

Results

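Butyrate-treated colonoids were compared with untreated colonoids after 72 h by bulk RNA-seq, with 1 library on each side. These 2 libraries were chosen by their labels from the 4 of the series, and the other two, made at 48 h with and without butyrate, served for scaling, for filtering and as a side-by-side reading. Colonoids are 3-dimensional cultures of colonic epithelium grown from crypts. All 4 libraries are labelled wild type, from colonoids at passage 3 of a male mouse aged 24 weeks, whereas the methods of the study describe a Hes1-GFP reporter line. The methods give proximal colon as the source and a crypt medium with EGF, Noggin, R-spondin, the GSK3 inhibitor CHIR99021 and the ROCK inhibitor Y-27632 for treated and untreated cultures alike. Butyrate was given as 2 mM sodium butyrate. The question put to the libraries here was which genes and pathways outside the Notch set stood higher or lower with butyrate at 72 h.

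Butyrate is a short-chain fatty acid made by bacteria that ferment fibre in the colon. It enters colonic epithelial cells through monocarboxylate transporters, is oxidised there as a fuel, signals through receptors for free fatty acids, and inhibits histone deacetylases, the enzymes that remove acetyl groups from histones. The colonic crypt is renewed by stem cells at its base under Wnt signalling, and their progeny become absorptive colonocytes or secretory cells, namely mucus-producing goblet cells, hormone-producing enteroendocrine cells and chemosensory tuft cells. A bulk library averages over all of these, so fewer cells of a type cannot be told apart from less RNA per cell.

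Of 36144 gene names in the table, 11622 outside the Notch set passed the count filter of the methods and had a mean scaled count of at least 50, and these are the genes tested. Total counts were between 20790225 and 24207840 per library, and the mitochondrial genome took 18.4% of the untreated and 16.3% of the butyrate library at 72 h. The floor of 3 counts is equal to 0.127 CPM in the untreated and 0.144 CPM in the butyrate library, where CPM is a count as a share of its library's total. Log2 folds are butyrate over untreated, from counts scaled by size factors with a pseudocount of 1, and the ranges in parentheses are exact 95% Clopper-Pearson intervals. Such an interval covers counting error only, and reads carried no molecular identifiers. There was no replicate, so none of the differences could be set against the spread between cultures and no p-value was computed.

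Few of the genes tested passed the 2-fold line at 72 h, with 268 at least 2-fold higher (2.31%) and 186 at least 2-fold lower (1.6%). The typical gene differed little after scaling, with a median absolute log2 fold of 0.18 and 96.1% of genes within 2-fold. The median log2 fold was within 0.01 of 0, but size factors place it near 0 by design. With total count scaling it was 0.05. Counting error alone was smaller than many of these small differences, since the interval lay above 0 for 3214 genes (27.7%) and below 0 for 3324 genes (28.6%). A log2 fold beyond 2 was reached by 38 genes upward and 29 downward. For scale, the untreated libraries at 72 h and 48 h, which differ only in time by their labels, were at least 2-fold apart in 87 genes upward (0.749%) and 96 downward (0.826%), with a median absolute log2 fold of 0.15. Against the untreated library at 48 h as well, 160 of the 268 higher genes (1.38% of genes tested) and 96 of the 186 lower genes (0.826%) were still beyond 2-fold. At 48 h butyrate was at least 2-fold above untreated in 457 genes (3.93%) and below in 178 (1.53%). The higher genes shared by both times were 161, which is 60.1% of those at 72 h and 35.2% of those at 48 h. The shared lower genes were 48, which is 25.8% and 27.0% of the respective sets. Genes with few counts in both untreated libraries passed the filter only through their butyrate counts. The overlap of higher genes can therefore not be compared with that of lower genes.

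**Figure D1:**
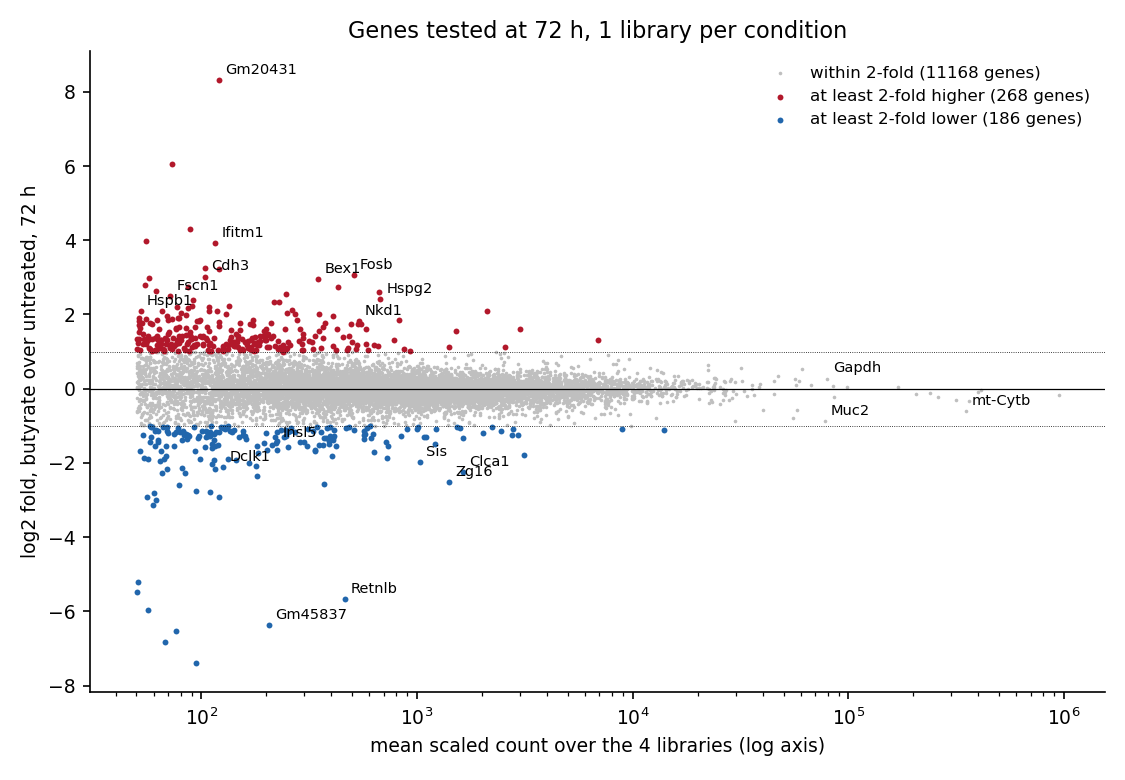
Each point is 1 of 11622 genes, with the mean scaled count over the 4 libraries on a log axis and the log2 fold of butyrate over untreated at 72 h on the vertical axis, where dotted lines mark 2-fold. The 268 red and 186 blue points lie mostly among genes of low to middling counts, and the most abundant genes, such as *Gapdh*, *Muc2* and *mt-Cytb*, stay within 2-fold.

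Among the 15 highest log2 folds with a mean scaled count of at least 100, the genes that share little sequence with others included surface, matrix and antigen presentation genes. *Ifitm1*, an interferon-inducible membrane protein gene on chromosome 7 (140967221 to 140969825 in GRCm38), had 19 counts in the untreated and 275 in the butyrate library at 72 h, against 37 and 121 at 48 h. Its log2 fold at 72 h was 3.91 (3.31 to 4.74), and the butyrate count was above both untreated counts at each time. *Slc30a2*, a zinc transporter gene on chromosome 4 (134343181 to 134354484), had 15 and 138 counts at 72 h, against 49 and 221 at 48 h, a log2 fold of 3.25 (2.56 to 4.21) at 72 h. *Cdh3* encodes P-cadherin, an adhesion protein of basal and placental epithelia, and lies on chromosome 8 (106510891 to 106557297). It had 15 and 118 counts at 72 h, against 12 and 286 at 48 h, a log2 fold of 3.02 (2.33 to 3.99) at 72 h. *Bex1*, a small protein gene best known from neurons, on the X chromosome (136213972 to 136215513), had 84 and 599 counts at 72 h, against 104 and 608 at 48 h, a log2 fold of 2.95 (2.63 to 3.31). Both butyrate libraries were far above both untreated ones. About 40.0% of its 31-base words also occur in transcripts of other genes, so part of its reads could have been shared.

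*Krt4*, a keratin of stratified mucosa, had 202 and 1127 counts at 72 h, against 213 and 1143 at 48 h, and its log2 fold of 2.60 (2.39 to 2.83) came with nearly the same counts at both times. *Sema3f*, a secreted guidance cue, had 76 and 355 counts at 72 h, against 73 and 421 at 48 h, a log2 fold of 2.34 (1.99 to 2.73). *Adora1*, an adenosine receptor gene, had 38 and 166 counts at 72 h, a log2 fold of 2.23 (1.74 to 2.81), and *Ltbp3*, which encodes a binding protein of latent TGF-beta, had 27 and 117, a log2 fold of 2.20 (1.63 to 2.91). The predicted gene *Gm32742* had 45 and 211 counts at 72 h, against 128 and 517 at 48 h, and its untreated counts were far apart.

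At this mean count, the most extreme log2 fold in each direction came from a predicted gene that shares its sequence with a neighbour. *Gm20431* had 0 counts in the untreated and 295 in the butyrate library at 72 h, at least 108-fold higher against the floor of 3 counts per library, and 59 and 112 counts at 48 h. Of its 31-base words, 98.9% occur in other genes, chiefly *Ube2v1*, which had 2900 and 2561 counts. *Gm45837* had 534 and 5 counts at 72 h but 0 and 318 at 48 h, with 98.5% of its words shared, mostly with *Pde2a* at 595 and 545 counts. The processed pseudogene *Kansl2-ps* had 16 and 144 counts at 72 h, against 120 and 207 at 48 h, and shared 95.7% of its words with *Kansl2*, at 1210 and 1172 counts. In *Gm20431*, *Gm45837* and *Kansl2-ps*, the assignment of reads between near-identical transcripts was uncertain, while the better-covered partner gene differed little at 72 h. At 48 h *Pde2a* had 1043 and 297 counts, lower with butyrate where *Gm45837* was higher. *Fosb*, a subunit of the AP-1 transcription factor that is induced within minutes of a stimulus, was read without such sharing. It had 77 and 590 counts at 72 h, a log2 fold of 3.05 (2.72 to 3.43), but 1250 and 42 at 48 h, so the untreated 48 h library was the highest of the 4 and the direction was the opposite.

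**Figure D2:**
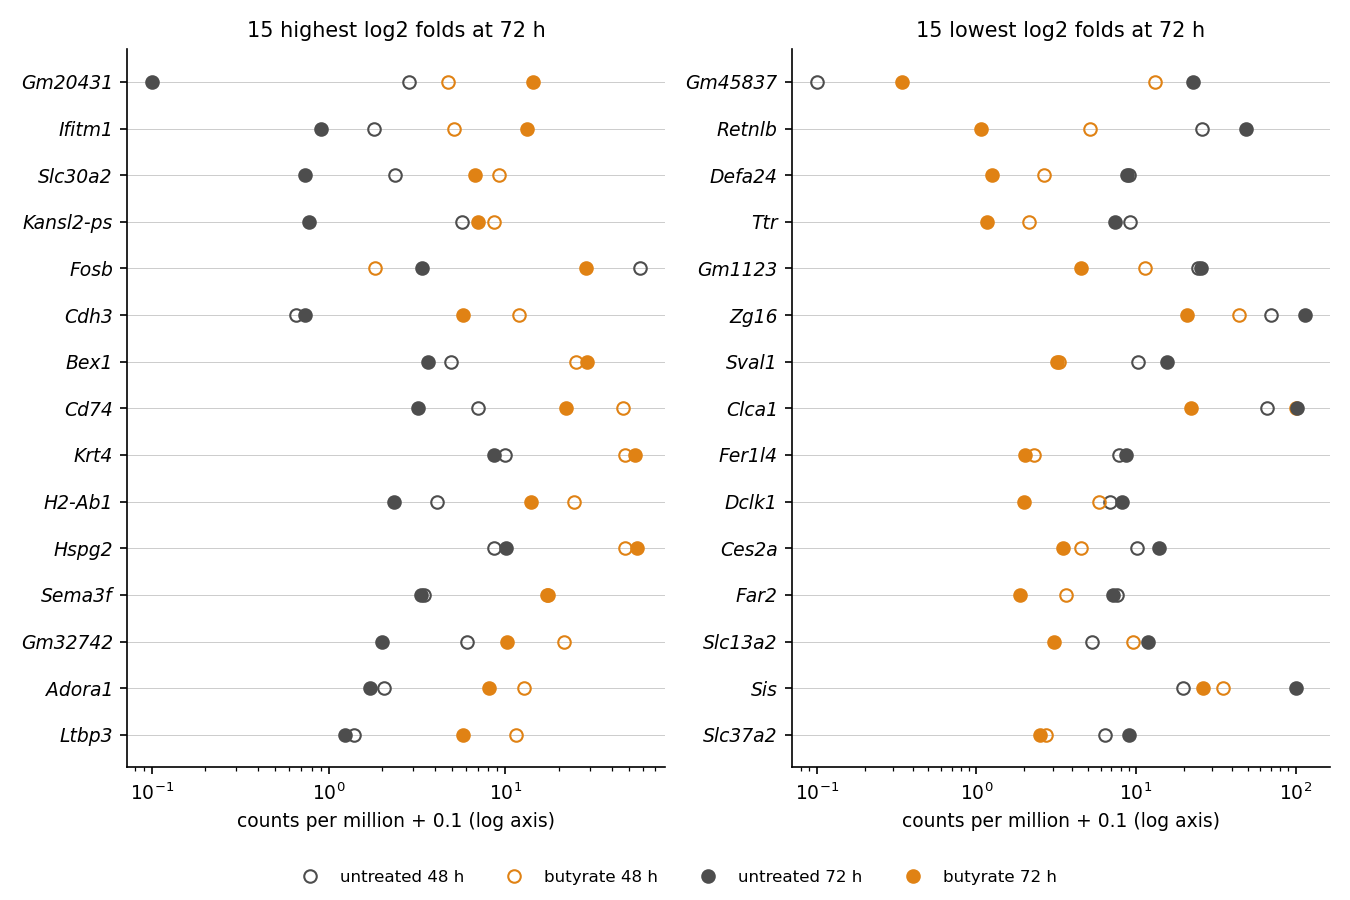
CPM plus 0.1 on a log axis in each of the 4 libraries (grey untreated, orange butyrate, open 48 h, filled 72 h) for the 15 genes with the highest and the 15 with the lowest log2 fold at 72 h. For *Bex1*, *Krt4*, *Hspg2* and *Sema3f* both orange points lie to the right of both grey points, whereas *Fosb*, *Gm45837*, *Clca1* and *Sis* change order between the times.

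Among the 15 lowest log2 folds at this mean count were 3 secreted products of goblet cells, *Retnlb*, *Zg16* and *Clca1*. *Retnlb*, which encodes the goblet cell cytokine RELM-beta, on chromosome 16 (48816856 to 48818892), had 1158 counts in the untreated and 20 in the butyrate library at 72 h, against 559 and 122 at 48 h. Its log2 fold of −5.66 (−6.44 to −5.09) was the lowest of any gene without shared words among these 15, and the butyrate count was the lower one at both times. *Zg16*, a mucus lectin that binds bacteria, had 2711 and 429 counts at 72 h, against 1506 and 1067 at 48 h, with log2 folds of −2.53 (−2.68 to −2.38) and −0.67. *Clca1*, a protease of the mucus layer, had 2399 and 458 counts at 72 h, a log2 fold of −2.26 (−2.41 to −2.11), but 1427 and 2450 at 48 h. *Dclk1*, a kinase that marks tuft cells, had 189 and 39 counts at 72 h, against 147 and 140 at 48 h, so that only the butyrate library at 72 h stood apart.

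*Ttr*, the carrier of thyroid hormone and retinol-binding protein, had 171 and 22 counts at 72 h, against 197 and 49 at 48 h, a log2 fold of −2.78 (−3.54 to −2.18) at 72 h. *Ces2a*, a carboxylesterase that hydrolyses drugs and lipids, had 328 and 70 counts at 72 h, a log2 fold of −2.08 (−2.49 to −1.72). *Slc13a2*, a citrate transporter gene, had 277 and 62 counts, and *Sis*, the disaccharidase sucrase-isomaltase, had 2357 and 543. *Slc13a2* shares 21.7% of its words with an antisense transcript. Both were the other way round at 48 h, with 113 and 231 counts for *Slc13a2* and 422 and 847 for *Sis*. The untreated library at 72 h was the highest of the 4 for *Sis*, and butyrate at 72 h stood 0.44 above untreated at 48 h on the log2 scale. *Far2*, which makes fatty alcohols, *Slc37a2*, a sugar phosphate transporter gene, *Fer1l4*, *Sval1* and *Gm1123* had log2 folds between −2.56 and −1.94 and were at least 2-fold lower at 48 h too. *Defa24*, an alpha-defensin gene, had 206 and 24 counts, but 57.1% of its words occur in other defensin genes.

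Goblet cell genes were lower with butyrate at 72 h, from secreted proteins to the mucin itself. Of 20 tested, 18 had an interval below 0 (background 28.6%), 6 were at least 2-fold lower (background 1.6%) and 0 at least 2-fold higher (background 2.31%). Their median log2 fold was −0.73, against 0.00 for all genes tested, and it was −0.40 at 48 h. Beside *Retnlb*, *Zg16* and *Clca1*, the list's largest differences were in *Fer1l6*, a ferlin gene, with 997 and 365 counts at 72 h, and *Bcas1*, with 861 and 331. *Muc2*, the gel-forming mucin of the colon on which the mucus layer depends, had 120956 and 60629 counts at 72 h, against 71452 and 57372 at 48 h. Its log2 fold was −0.87 (−0.88 to −0.85), short of the 2-fold line. With the untreated 48 h library in place of the 72 h one, the list's median was −0.70, but that of *Muc2* alone was −0.16, since the untreated level of *Muc2* was higher at 72 h than at 48 h.

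Enteroendocrine genes were lower in both of their lists. Of 12 hormone and granin genes tested, 9 had an interval below 0 (28.6% of all genes) and 4 were at least 2-fold lower (1.6%), with a median log2 fold of −0.80 at 72 h against 0.05 at 48 h. With untreated at 48 h as the reference, the median at 72 h was −0.46. *Insl5*, a hormone of colonic L cells, had 302 and 99 counts at 72 h, against 266 and 235 at 48 h, a log2 fold of −1.47 (−1.82 to −1.15) at 72 h. *Pyy*, the satiety hormone of the same cells, had 381 and 127 counts at 72 h, against 329 and 381 at 48 h, a log2 fold of −1.45 (−1.76 to −1.16). *Chga*, the granule protein chromogranin A, had 1936 and 863 counts at 72 h, and *Tph1*, which makes serotonin in enterochromaffin cells, had 162 and 71. In *Insl5*, *Pyy*, *Chga* and *Tph1*, the butyrate library at 72 h was the lowest of the 4 libraries. Of 13 transcription factor genes of the lineage, 7 had an interval below 0 (28.6% of all genes), with a median of −0.50 at 72 h against −0.53 at 48 h. Over the 4 with a mean scaled count of at least 200, the median at 72 h was −0.11. *Nkx2-2* had 143 and 53 counts, a log2 fold of −1.29 (−1.79 to −0.84), and *Neurod1*, which drives endocrine differentiation, had 260 and 138, a log2 fold of −0.78 (−1.09 to −0.48).

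Tuft cell genes were few but shared the direction. Of 5 tested, 4 had an interval below 0 (28.6% of all genes), and the median was −0.97 at 72 h against −0.24 at 48 h. Over the 9 that passed the filter of the methods alone, the median at 72 h was −1.68. *Trpm5*, the cation channel of taste and tuft cells, had 97 and 27 counts at 72 h, against 76 and 62 at 48 h, a log2 fold of −1.68 (−2.39 to −1.09). *Pou2f3*, the master regulator of the lineage, had 63 and 29 counts, a log2 fold of −0.97 (−1.68 to −0.33). The list of deep crypt secretory genes had a median of 0.04 at 72 h, but −0.36 at 48 h and −0.35 for butyrate at 72 h over untreated at 48 h. *Reg4*, the marker of these Paneth-like cells, had 340 and 648 counts at 72 h, a log2 fold of 1.06 (0.87 to 1.25), with 1101 and 1459 at 48 h.

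Absorptive colonocyte genes were lower to a smaller degree. Of 30 tested, 21 had an interval below 0 (28.6% of all genes) and 5 above 0 (27.7%), but only *Tmigd1* was at least 2-fold lower, and the median was −0.30 at 72 h against 0.36 at 48 h. Against untreated at 48 h, the list's median at 72 h was −0.18. *Tmigd1*, an adhesion molecule of the mature epithelium, had 1149 and 358 counts at 72 h, against 560 and 909 at 48 h. *Car1*, the carbonic anhydrase of the colonic surface, had 35077 and 17453 counts at 72 h, a log2 fold of −0.88 (−0.90 to −0.85), and 19941 and 49510 at 48 h. *Sult1a1*, a sulfotransferase gene, was the only one at least 2-fold higher, at 27 and 65 counts, a log2 fold of 1.36 (0.73 to 2.10). The list of small intestinal and gastric markers had a median of −1.21 over 9 tested genes, 5 of them at least 2-fold lower (1.6% of all genes). Against untreated at 48 h, the median was −0.24 and 1 of the 9 was at least 2-fold lower. *Alpi*, an intestinal alkaline phosphatase gene, had 595 and 186 counts at 72 h, against 355 and 594 at 48 h, whereas *Gata4*, a transcription factor gene of the upper gut, had 61 and 155 counts, a log2 fold of 1.46 (1.04 to 1.93). Colonic position markers had a median of −0.39, with *Slc37a2* and *Hoxb13*, at 48 and 13 counts, at least 2-fold lower among 11 tested (1.6% of all genes).

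**Figure D3:**
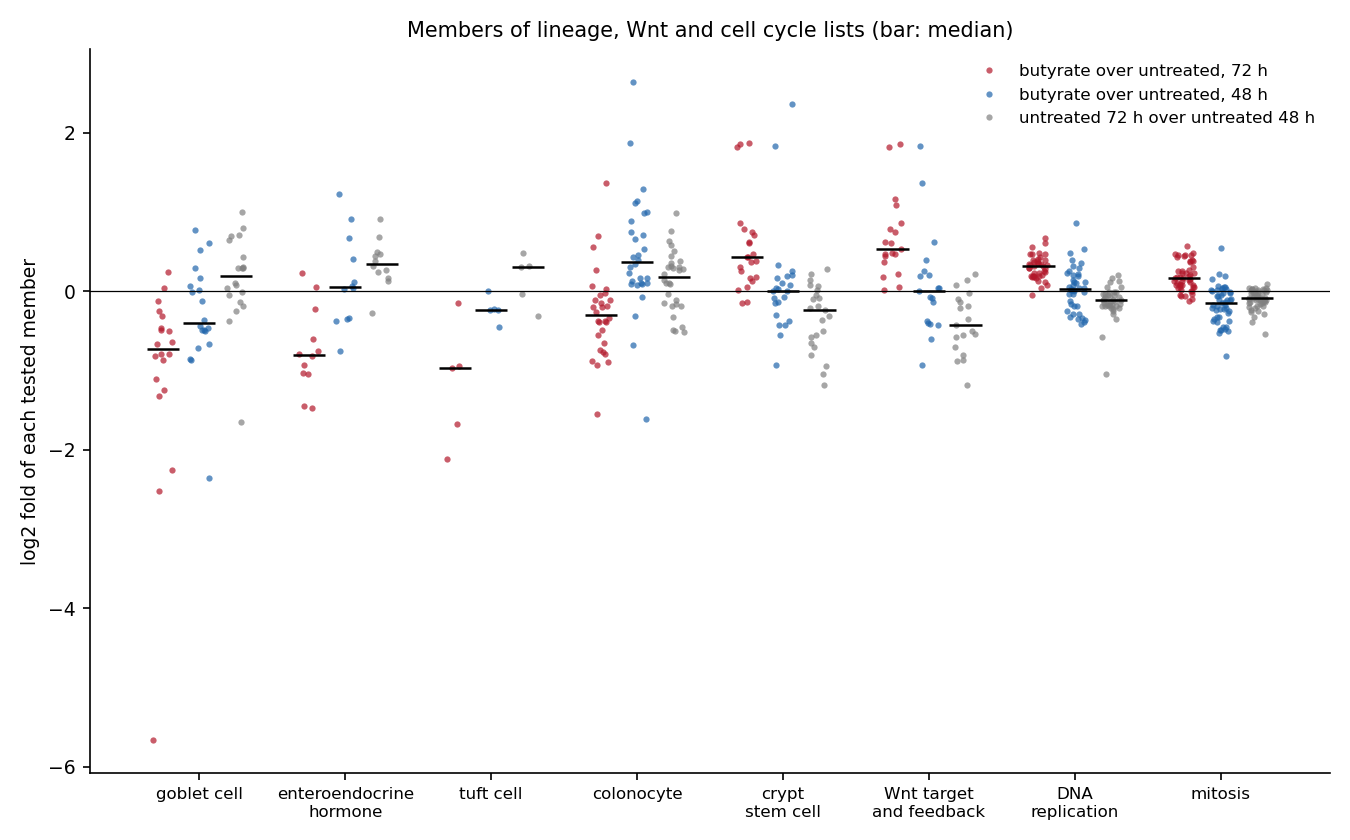
Each point is a tested member of the list named on the horizontal axis, the vertical axis is its log2 fold, and black bars are medians (red, butyrate over untreated at 72 h; blue, the same at 48 h; grey, untreated at 72 h over untreated at 48 h). Goblet, hormone and tuft cell members lie mainly below 0 in red, and stem cell, Wnt and replication members mainly above 0.

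Genes under Wnt control stood higher with butyrate. Of 19 tested Wnt target and feedback genes, 19 had a log2 fold above 0, 17 had an interval above 0 (background 27.7%) and 4 were at least 2-fold higher (background 2.31%). The median was 0.53 at 72 h against 0.00 at 48 h. *Nkd1*, an inhibitor that Wnt signalling induces against itself, had 291 and 939 counts at 72 h, against 413 and 464 at 48 h, a log2 fold of 1.82 (1.63 to 2.01) at 72 h. *Notum*, an enzyme that strips the lipid from Wnt proteins, had 32 and 108 counts at 72 h, against 28 and 115 at 48 h, a log2 fold of 1.85 (1.30 to 2.50), with 33.0% of its words shared with other transcripts. *Lef1*, one of the factors that bind DNA for beta-catenin, had 88 and 181 counts, a log2 fold of 1.16 (0.79 to 1.55), and *Prox1*, a homeobox gene, had 270 and 524, a log2 fold of 1.08 (0.87 to 1.30). *Sp5*, a zinc finger target gene, had 208 and 346 counts at 72 h, a log2 fold of 0.86 (0.61 to 1.12), but 351 and 295 at 48 h, a log2 fold of −0.42. *Prox1* was also lower with butyrate at 48 h, at −0.41. The untreated libraries were themselves apart in this list, with a median of −0.43 for 72 h over 48 h. Butyrate at 72 h stood at a median of 0.21 above untreated at 48 h, below the 0.53 against untreated at 72 h.

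Because these genes stood higher together at 72 h, the bases before the start of *Sp5* and *Nkd1* are shown, the former with the letters that TCF and LEF factors are known to prefer. Each is the 150 bases upstream of the RefSeq start on the plus strand in GRCm38.p6, at chr2:70474773-70474922 for *Sp5* and chr8:88527483-88527632 for *Nkd1*, written 5′ to 3′, with capitals for CTTTGA or its reverse complement TCAAAG.
Sp5: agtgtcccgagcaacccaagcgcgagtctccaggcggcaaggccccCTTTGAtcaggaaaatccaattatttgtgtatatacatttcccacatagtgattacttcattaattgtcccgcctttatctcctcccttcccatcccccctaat
Nkd1: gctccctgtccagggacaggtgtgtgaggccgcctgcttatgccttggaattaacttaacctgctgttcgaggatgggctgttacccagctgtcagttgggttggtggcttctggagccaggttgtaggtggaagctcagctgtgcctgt
In *Sp5* the match begins 104 bases before the start, and *Nkd1* has none in this window. Of the 13 Wnt list genes with a promoter entry, *Lef1*, in 1 of its 4 windows, and *Sp5* hold the letters within 150 bases. Counted by window, 2 of 20 hold them, and 7.93% of all 32851 promoter windows of this length do. A match is a description of letters, and binding was not measured.

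Crypt stem cell genes, which partly overlap the Wnt list, had a median of 0.43 at 72 h against 0.00 at 48 h, with 19 of 23 intervals above 0 (27.7% of all genes). Against untreated at 48 h, the median of the butyrate library at 72 h was 0.16. *Msi1*, an RNA-binding protein gene of stem and progenitor cells, had 116 and 388 counts at 72 h, against 92 and 536 at 48 h, a log2 fold of 1.86 (1.57 to 2.18). *Lgr5*, the R-spondin receptor that marks crypt base stem cells, had 5108 and 8068 counts at 72 h, a log2 fold of 0.79 (0.74 to 0.84), but 7380 and 4341 at 48 h. The untreated 48 h and the butyrate 72 h library were thus the 2 highest for *Lgr5*. Of 9 YAP and TEAD target genes, 6 had an interval above 0 (27.7% of all genes) and 2 below 0 (28.6%), with a median of 0.33 at 72 h against −0.20 at 48 h. *Ccn1*, a matrix signalling protein, had 359 and 633 counts at 72 h, against 369 and 101 at 48 h.

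Cell cycle genes were higher by a small but even amount. Of 41 DNA replication genes tested, 40 were above 0 and 35 had an interval above 0 (27.7% of all genes), whereas 0 had an interval below 0 (28.6%), and none was beyond 2-fold. Their median was 0.32 at 72 h against 0.03 at 48 h. *Uhrf1*, which keeps DNA methylation through replication, had 2282 and 3317 counts at 72 h, a log2 fold of 0.67 (0.59 to 0.75), and *Cdt1*, a licensing factor of replication origins, had 1057 and 1421, a log2 fold of 0.56 (0.44 to 0.67). Of 49 mitosis genes, 27 had an interval above 0 and 0 below, against the same shares of all genes, with a median of 0.17 at 72 h against −0.16 at 48 h. *Mki67*, the proliferation marker Ki-67, had 12489 and 15647 counts at 72 h, a log2 fold of 0.45 (0.42 to 0.49), and *Top2a*, the topoisomerase that untangles chromosomes, had 7344 and 9394, a log2 fold of 0.48 (0.44 to 0.53). Among 6 cyclin-dependent kinase inhibitors, *Cdkn2b* had 1347 and 718 counts and *Cdkn1a*, the p53 target p21, had 3456 and 3614, with log2 folds of −0.78 (−0.91 to −0.65) and 0.19 (0.13 to 0.26). At 48 h both were higher with butyrate, with log2 folds of 0.36 for *Cdkn2b* and 0.96 for *Cdkn1a*. Of 82 cytosolic ribosomal protein genes, 59 had an interval above 0 (27.7% of all genes) and 8 below 0 (28.6%), with a median of only 0.12. Against untreated at 48 h, this list's median at 72 h was −0.05.

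Detoxifying enzymes were the metabolic list with the lowest median, −0.61 at 72 h against 0.25 at 48 h. Of 32 tested, 26 had an interval below 0 (28.6% of all genes), 4 were at least 2-fold lower (1.6%) and 2 at least 2-fold higher (2.31%). *Cyp2c65*, a cytochrome P450 gene, had 1945 and 635 counts at 72 h, against 1186 and 1128 at 48 h, a log2 fold of −1.48 (−1.62 to −1.36), though it shares 35.4% of its words with related genes. *Sult1d1*, a sulfotransferase gene, had 1136 and 384 counts, a log2 fold of −1.43 (−1.61 to −1.27), and *Cyp3a13* had 1149 and 432, a log2 fold of −1.28 (−1.44 to −1.12). Among Nrf2 targets, which defend against oxidants, the median was −0.06, but *Nqo1* had 1170 and 538 counts, a log2 fold of −0.99 (−1.14 to −0.84) that was 0.29 at 48 h, and *Hmox1*, which degrades heme, had 449 and 641, a log2 fold of 0.64 (0.47 to 0.82).

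Glycolysis and hypoxia-response genes leaned upward and respiratory chain genes slightly downward. In the former list 23 of 32 intervals lay above 0 (27.7% of all genes) and 1 below (28.6%), with a median of 0.27 at 72 h against 0.18 at 48 h. The median was 0.12 with untreated at 48 h as the reference. *Adm*, the hypoxia-induced peptide adrenomedullin, had 87 and 185 counts at 72 h, a log2 fold of 1.21 (0.84 to 1.60), and *Bnip3*, which acts in the removal of mitochondria, had 1535 and 2759, a log2 fold of 0.97 (0.88 to 1.07), with 57.0% of its words shared. *Pfkm*, a phosphofructokinase gene, had 254 and 437 counts, a log2 fold of 0.91 (0.69 to 1.14). For *Adm* the untreated 48 h library held 194 counts, as many as butyrate at 72 h. Of 81 nuclear genes of oxidative phosphorylation, 50 had an interval below 0 (28.6% of all genes) and 5 above (27.7%), with a median of −0.12, and *Cox6b2*, a testis form of a complex IV subunit, was the only one beyond 2-fold, at 1.03. *Ndufa1*, a complex I subunit, had 817 and 417 counts, a log2 fold of −0.84 (−1.01 to −0.67). All 13 mitochondrial genome genes had an interval below 0, with a median of −0.23 at 72 h against −0.09 at 48 h, and none was 2-fold lower. Their untreated level was higher at 72 h than at 48 h by a median of 0.42, and against untreated at 48 h the butyrate library at 72 h stood 0.14 higher.

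Other metabolic lists had medians near that of all genes. Fatty acid oxidation genes, through which butyrate is burned, had a median of −0.04 over 34 genes. Of their intervals, 9 lay above 0 (27.7% of all genes) and 10 below 0 (28.6%), near those shares. Sterol synthesis genes had a median of −0.10 over 25, but 17 intervals lay below 0 and 3 above, and the median was −0.21 at 48 h. Ketone body genes had a median of 0.08 over 7. *Pck1*, which starts gluconeogenesis, had 146 and 44 counts, a log2 fold of −1.58 (−2.12 to −1.11). *Angptl4*, a lipase inhibitor and PPAR target, had 78 and 156 counts, a log2 fold of 1.12 (0.73 to 1.54), and *Fabp2*, the intestinal fatty acid binding protein, had 1004 and 396, a log2 fold of −1.21 (−1.38 to −1.04).

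Genes that take up, sense or answer to butyrate did not share a direction. *Slc16a3*, the lactate exporter MCT4, had 1363 and 2690 counts at 72 h, against 1937 and 4344 at 48 h, a log2 fold of 1.11 (1.02 to 1.21), and its chaperone *Bsg* had 15282 and 21697, a log2 fold of 0.64 (0.61 to 0.67). *Slc5a8*, a sodium-coupled butyrate transporter gene, had 585 and 400 counts, a log2 fold of −0.42 (−0.61 to −0.23). *Ffar2*, a receptor for short-chain fatty acids, had 92 and 32 counts at 72 h, against 139 and 84 at 48 h, a log2 fold of −1.37 (−2.02 to −0.80). Of 16 histone deacetylase and sirtuin genes tested, none was beyond 2-fold, and *Hdac1* had 3387 and 3782 counts at 72 h, against 3167 and 7100 at 48 h. Among neuronal genes, often silent in epithelium, 2 of 26 tested were at least 2-fold higher (2.31% of all genes) and 2 at least 2-fold lower (1.6%). *Grin1*, a glutamate receptor subunit, had 105 and 241 counts, a log2 fold of 1.32 (0.99 to 1.67), while *Nefm*, a neurofilament gene, had 105 and 41, a log2 fold of −1.21 (−1.79 to −0.69). Of 41 germline genes 6 were tested, 3 of them with an interval above 0 (27.7% of all genes), 1 below 0 (28.6%) and 0 beyond 2-fold. Their median of 0.59 at 72 h was below the 0.92 at 48 h, and *Tex15*, a meiotic gene, had 125 and 197 counts.

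Of the class II antigen presentation genes, *Cd74* and *H2-Ab1* were higher with butyrate. Of 11 class II genes listed, 3 passed the filter on counts, 2 of them at least 2-fold higher (2.31% of all genes), and their median was 2.55 at 72 h against 2.60 at 48 h. It was 1.68 for butyrate at 72 h over untreated at 48 h. *Cd74*, the invariant chain that guides class II molecules, lies on chromosome 18 (60803848 to 60812652) and had 73 and 454 counts at 72 h, against 149 and 1112 at 48 h, a log2 fold of 2.75 (2.41 to 3.14). *H2-Ab1*, a class II beta chain, had 53 and 288 counts at 72 h, against 86 and 592 at 48 h, a log2 fold of 2.55 (2.14 to 3.02), and *H2-DMa*, which loads the peptide, had 79 and 88, a log2 fold of 0.28 (−0.17 to 0.74). *Cd68*, a marker of macrophages that other cells also hold in lysosomes, stood beside these with 172 and 420 counts at 72 h, against 128 and 1309 at 48 h. *Chit1*, a macrophage chitinase gene, had 2 and 21 counts at 72 h, a log2 fold of 2.99 (1.49 to 6.66), with 7 and 217 at 48 h. Their part in the class II difference was not tested. Of 23 class I genes, *H2-Q6*, *H2-Q7* and the immunoproteasome subunit *Psmb8* were at least 2-fold higher, against 2.31% of all genes, with 44 and 135 counts for *Psmb8*. The median was 0.05, and −0.15 with a mean scaled count of at least 200. *H2-Q6* and *H2-Q7* share 51.8% and 39.2% of their words with other genes. Of 20 interferon-induced genes, *Cxcl10*, *Ifit2*, *Bst2* and *Ifi27* were at least 2-fold higher (2.31% of all genes), and the median was −0.05, which turned to 0.14 under the filter of the methods alone. *Bst2*, the virus tether tetherin, had 105 and 237 counts, a log2 fold of 1.30 (0.97 to 1.65). In the NF-kB list the adhesion receptor *Icam1* had 136 and 273 counts, a log2 fold of 1.13 (0.83 to 1.44), whereas *Duox2*, which makes hydrogen peroxide at the mucosal surface, had 1358 and 612 counts, and its partner *Duoxa2* had 107 and 40, log2 folds of −1.02 (−1.16 to −0.88) and −1.27 (−1.85 to −0.75).

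Antimicrobial genes were split, with 4 of 15 at least 2-fold lower (1.6% of all genes) and 2 at least 2-fold higher (2.31%). *Itln1*, a lectin that binds microbial sugars, had 1745 and 722 counts at 72 h, against 3832 and 3724 at 48 h, a log2 fold of −1.14 (−1.27 to −1.02). *Reg3b*, which kills Gram-negative bacteria, had 122 and 42 counts. *Wfdc2*, a protease inhibitor of mucosal secretions, had 299 and 920 counts at 72 h, against 265 and 452 at 48 h, a log2 fold of 1.75 (1.56 to 1.94). Only the last was higher in the butyrate library at 72 h than in all 3 others.

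Basement membrane genes held several of the best-counted higher genes. Of 16 tested, 4 were at least 2-fold higher (2.31% of all genes) and 0 lower, and 9 had an interval above 0 (27.7%) and 2 below 0 (28.6%), with a median of 0.32 at 72 h against 0.30 at 48 h. *Hspg2*, the heparan sulfate proteoglycan perlecan, on chromosome 4 (137468769 to 137570630), had 236 and 1147 counts at 72 h, against 184 and 1149 at 48 h, a log2 fold of 2.41 (2.21 to 2.62). *Lama5*, the laminin chain that epithelia lay down beneath themselves, had 927 and 3640 counts at 72 h, against 776 and 3084 at 48 h, a log2 fold of 2.10 (2.00 to 2.21). In both genes each butyrate library was above each untreated one. *Lamb2* had 648 and 1197 counts, a log2 fold of 1.01 (0.88 to 1.15), and *Lamb1* had 42 and 86 with 82 and 87 at 48 h, so that its difference came with a low untreated count at 72 h.

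Adhesion and apical structures were otherwise slightly lower. The medians were −0.24 for 21 tight junction genes, −0.12 for 24 cadherin and desmosome genes, −0.19 for 23 brush border genes and −0.20 for 27 ion and water transport genes. In the same order they were −0.24, −0.003, 0.01 and 0.33 at 48 h. Against untreated at 48 h, the medians at 72 h were −0.07, −0.06, −0.05 and −0.09. *Cldn23*, a claudin gene of surface colonocytes, had 859 and 481 counts, a log2 fold of −0.71 (−0.87 to −0.54), and *Myo1a*, the myosin of microvilli, had 6671 and 3206, a log2 fold of −0.93 (−0.99 to −0.87) that was 0.35 at 48 h. *Fscn1*, which bundles actin in cell protrusions, was at 18 and 97 counts at 72 h, against 23 and 154 at 48 h, a log2 fold of 2.49 (1.82 to 3.37). *Tpm2*, a tropomyosin gene, had 67 and 172 counts, and *Acta1*, the skeletal muscle actin, had 681 and 264, with log2 folds of 1.48 (1.07 to 1.92) and −1.23 (−1.45 to −1.03). *Krt20*, a keratin of differentiated colonocytes, had 2637 and 1439 counts, a log2 fold of −0.74 (−0.84 to −0.65) that was 0.31 at 48 h.

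Among stress genes, those of the unfolded protein response were evenly lower, with 21 of 25 intervals below 0 (28.6% of all genes), 1 above 0 (27.7%), and none beyond 2-fold. The median was −0.22 at 72 h against −0.23 at 48 h. *Ern2*, the stress sensor of mucus-secreting cells, had 3041 and 1805 counts, a log2 fold of −0.62 (−0.71 to −0.54), and *Xbp1*, its target factor, had 3551 and 2536, a log2 fold of −0.36 (−0.43 to −0.28). *Hspb1*, a small heat shock protein gene, had 10 and 42 counts at 72 h, against 6 and 163 at 48 h, a log2 fold of 2.09 (1.18 to 3.36), with 55.4% of its words shared with a pseudogene and other transcripts. In signalling lists, *Id4*, an inhibitor of DNA binding induced by BMP, had 109 and 26 counts at 72 h, against 117 and 13 at 48 h, a log2 fold of −1.90 (−2.62 to −1.31). *Bmp2* itself had 482 and 208 counts, a log2 fold of −1.08 (−1.32 to −0.85). These were the 2 of 20 BMP and TGF-beta genes beyond 2-fold (3.91% of all genes). The list's median was 0.07, with 7 intervals above 0 (27.7%) and 7 below 0 (28.6%).

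**Figure D4:**
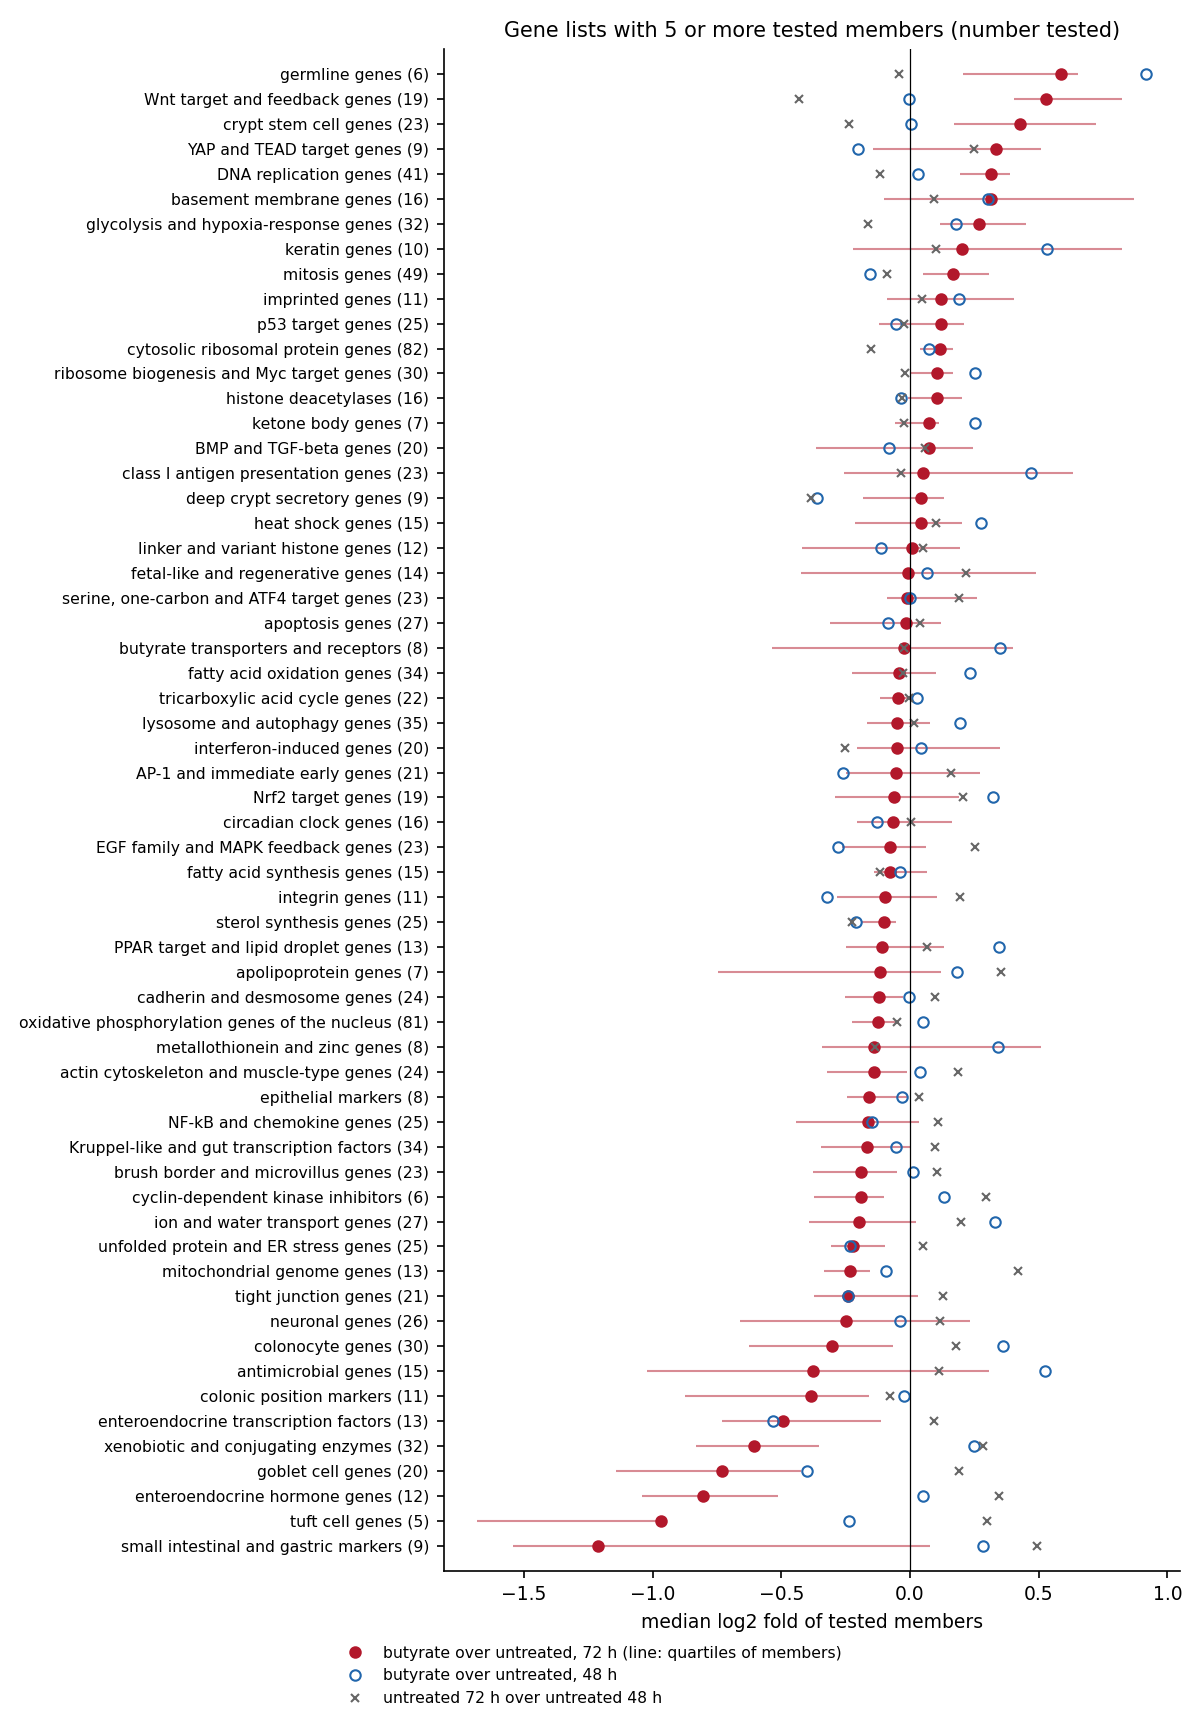
Median log2 fold of the tested members of each gene list with 5 or more of them, with the number tested in brackets (red, butyrate over untreated at 72 h with a line between the quartiles of members; open blue, the same at 48 h; grey cross, untreated at 72 h over 48 h). Most lists lie within 0.25 of 0, and for Wnt targets, hormones and small intestinal markers the grey cross lies on the side of 0 opposite to the red point.

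Measured as a share of the library, the largest losses with butyrate at 72 h were in mitochondrial messages and mucus. *mt-Cytb*, which encodes cytochrome b, took 21222 CPM in the untreated and 14563 CPM in the butyrate library at 72 h, against 15697 and 10487 CPM at 48 h. *mt-Atp6*, *mt-Co1*, *mt-Nd4*, *mt-Nd5*, *mt-Atp8* and *mt-Co3* were also among the 10 largest losses. Predicted genes share 99.5% of the words of *mt-Atp6*, 99.9% of *mt-Co3*, 63.9% of *mt-Co1* and 62.8% of *mt-Nd4*. *Gm28439*, which shares these with *mt-Nd4*, had 19049 and 8177 counts at 72 h, so reads could have been split between them. *Muc2* took 5130 and 2916 CPM, *Ceacam1*, an adhesion molecule of the apical surface, took 3290 and 1964 CPM, and *Dmbt1*, a scavenger protein of mucosal secretions, took 2198 and 1536 CPM at 72 h but 1470 and 1933 CPM at 48 h. The largest gains were in *Sprr2a2*, a cornified envelope gene, with 1696 and 2552 CPM, followed by *Gapdh*, with 3024 and 3777 CPM, and *Eno1*, with 1061 and 1614 CPM, both of glycolysis, then *Ptma*, with 1723 and 2253 CPM, and the glycolytic *Pkm*, with 2135 and 2632 CPM. *Sprr2a2* shares 97.8% of its words with *Sprr2a1*, which had 2568 and 2334 counts, so the split between them was uncertain. *Eef1a1*, *Hsp90ab1*, *Bsg*, *Tmsb10* and *Pabpc1* completed the 10 gains, with log2 folds between 0.04 and 0.64. The mitochondrial share sets part of a share's size, and on scaled counts *Gapdh*, *Eno1* and *Pkm* had log2 folds of 0.27, 0.55 and 0.25.

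A wider view was taken with 625 Reactome sets of 15 to 200 tested genes. For 456 of these sets the median log2 fold at 72 h was within 0.1 of 0. The lowest medians were in synthesis of prostaglandins and thromboxanes (−0.49 over 15 genes), bile acid metabolism (−0.35 over 20), cytochrome P450 (−0.34 over 26), retinoic acid biosynthesis (−0.33 over 19) and O-linked glycosylation of mucins (−0.33 over 31), and biological oxidations, phase 1 enzymes, peptide ligand-binding receptors and N-glycan antennae followed. At 48 h the medians were on the other side of 0 for prostaglandins (0.28), cytochrome P450 (0.08), retinoic acid (0.14), phase 1 enzymes (0.17), peptide receptors (0.13) and biological oxidations (0.30). In 3 of these sets the aldo-keto reductase genes *Akr1c14*, *Akr1c18* and *Akr1c19* were among the leading members, so the sets share genes. The highest medians were in collagen biosynthesis (0.44 over 16 genes), extracellular matrix proteoglycans (0.40 over 21), DNA strand elongation (0.29 over 32), intraflagellar transport (0.26 over 36) and activation of the pre-replicative complex (0.26 over 29), with repair sets that share members with them. In the strand elongation set 27 intervals lay above 0 (27.7% of all genes tested) and 0 below (28.6%).

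The 2-fold differences fell mainly on genes with low counts. Genes were grouped by their scaled count in the untreated 48 h library, which does not enter the 72 h fold. Of 255 tested genes under 50 there, 34.1% were at least 2-fold higher and 2.35% lower at 72 h. Such genes passed the filter only through a higher value elsewhere, and their share cannot be read as a rate for silent genes. From 50 to 200 the shares were 7.86% and 5.04% of 1806 genes, from 200 to 1000 they were 0.678% and 1.46% of 4869, and from 1000 to 5000 they were 0.124% and 0.398% of 4024. Of 668 genes at 5000 or more, 1 was at least 2-fold higher and 2 were lower. In the bin from 200 to 1000 the order of the shares depended on the library used, since with bins of the mean of both 48 h libraries they were 1.55% higher and 1.19% lower. Median log2 folds of the 20 chromosomes lay between −0.04 and 0.02.

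**Figure D5:**
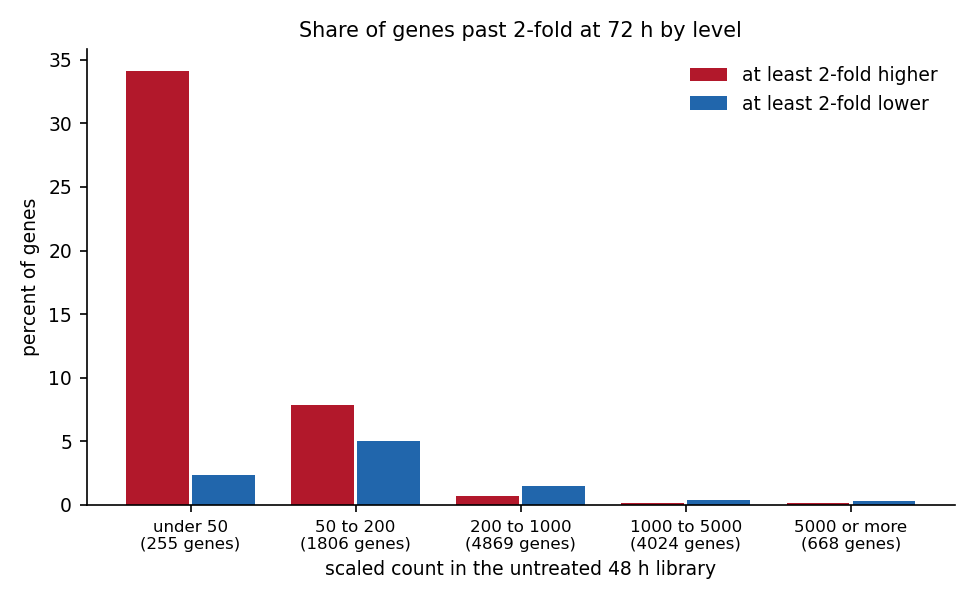
Bars give the percent of genes at least 2-fold higher (red) or lower (blue) with butyrate at 72 h in 5 bins of the scaled count in the untreated 48 h library. Higher genes make up 34.1% of the lowest bin and 0.678% of the 200 to 1000 bin.

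The 8 epithelial markers were all tested, within a log2 fold of −0.28 to 0.15, and *Krt8* had 39916 and 32362 counts. Of 14 immune cell markers, 7 were above the floor of 3 counts in some library and *Cd68* alone passed the filter, with 172 and 420 counts at 72 h, against 128 and 1309 at 48 h, and *Cd3g*, *Adgre1* and *Cd52* were at 0 in all 4 libraries. The summed scaled count of the immune list was 196 and 1271 at 48 h and 239.9 and 543 at 72 h, mostly *Cd68*, a lysosomal protein gene. Of 15 mesenchymal markers 8 were above the floor and 2 passed, and the sums were 218 and 274 at 48 h and 274 and 261 at 72 h, with *Col3a1*, *Lum* and *Twist1* at 0 throughout. Of 8 endothelial markers 5 were above the floor and 2 passed, with *Vwf* at 27 and 62 and *Lyve1* at 72 and 32 counts, and the sums were 125 and 210.5 at 48 h and 158 and 137 at 72 h. Of 10 enteric neuron and glia markers 6 were above the floor and only *Ret* passed, at 285 and 88 counts, with *Sox10*, *S100b* and *Hand2* at 0 throughout, and the sums were 296 and 189 at 48 h and 358 and 202 at 72 h. The part of other cells in the differences of class II, neuronal and matrix genes was not tested.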

How the data were processed

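Bulk RNA-seq was compared between 1 untreated and 1 butyrate library at 72 h. The authors deposited whole-number counts per gene name, made by pseudoalignment with kallisto (0.44.0 in the submitters' processing notes, with GRCm38.p6) and summed with tximport, with no normalisation or filter. They are therefore rounded estimates. Names of 26 rows had become dates and were not named.

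The filter of the methods (over 10 counts, 2 libraries or more) left 13979 genes, and outside the Notch set a mean scaled count of at least 50 over 4 libraries was required as well. Counts were scaled with DESeq2 1.42.0 size factors (R 4.3.3) and TMM factors came from edgeR 4.0.16. Of the gene identifiers in the Reactome sets, 97.7% matched. The other steps ran in Python 3.11.15 (scipy 1.17.1, pandas 2.3.3) and were tested on simulated data. Positions and transcripts were GENCODE M21. Shared words are the percent of a gene's 31-base words found in another gene's transcripts on either strand.

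The 65 gene lists were chosen with earlier results of these data known, without the 32 genes of the Notch set. Named were the 15 highest and 15 lowest log2 folds with a mean of at least 100, up to 5 members per list by size of the log2 fold, the 10 largest gains and losses in CPM, and cell type markers. Other genes in the text were chosen after their values were seen. Nothing says whether libraries came from separate cultures. Alternatives were other scalings, a pseudocount of 5, thinning, other filters and a call by the whole interval. Promoter base composition was not compared, since 78.1% of genes tested and 69.4% of the lower genes had a promoter entry, under the 80% required. Some genes on the lists were not analysed here.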

Additional observations from a re-analysis of the deposited data

Results flagged for a closer look

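Some results stood on opposite sides of 0 at 48 h and 72 h, and the difference between the times was not tested, since each time had 1 library per condition. Among gene lists, the median log2 fold of butyrate over untreated was −1.21 at 72 h and 0.28 at 48 h for small intestinal and gastric markers, −0.30 and 0.36 for colonocyte genes, −0.61 and 0.25 for xenobiotic and conjugating enzymes, and −0.38 and 0.52 for antimicrobial genes. The antimicrobial median at 72 h turned to 0.03 with a mean scaled count of at least 200.

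Among the 317 genes covered by the naming rule, 52 had intervals on opposite sides of 0 at 48 h and 72 h, and 12 of them were beyond 2-fold at 72 h. These genes were picked by the size of their difference at 72 h, across all genes or within a list. The same was not counted over all genes tested, so 52 cannot be read as many or few. Upward at 72 h were *Fosb*, with a log2 fold of 3.05 against −5.03 at 48 h, and *Prox1*, with 1.08 against −0.41. Downward at 72 h were *Sis* (−1.99 against 0.83), *Slc13a2* (−2.01 against 0.85), *Alpi* (−1.54 against 0.57), the adhesion molecule *Tmigd1* (−1.55 against 0.53) and the chloride channel regulator *Clca4b* (−1.07 against 0.67). The mucus protease *Clca1* had −2.26 against 0.61, *Tph1* of serotonin synthesis −1.05 against 1.22, and the lymphatic marker *Lyve1* −1.02 against 0.74. The heat shock gene *Hspa1a*, with 70.1% of its words shared, had −1.15 against 0.67. *Gm45837*, with 98.5% shared, had −6.37 at 72 h, while at 48 h it was at least 94.1-fold higher with butyrate against the floor of 3 counts.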

How the results depend on the processing

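No paired analysis was run, since every group held 1 library only. With other scalings, a pseudocount of 5 and thinning, the counts of genes past 2-fold stayed within 1.5 times of 268 and 186, and the median of all genes moved by at most 0.05. Other filters moved the counts to 631 higher and 528 lower with the filter of the methods alone, and to 78 and 81 with a mean scaled count of at least 200. When the whole interval had to lie beyond 2-fold they were 115 and 95, and 160 and 96 when the untreated 48 h library had to differ too, an alternative chosen after seeing the data. With a mean of at least 200, fewer members gave −0.26 for colonic position markers, −0.11 for enteroendocrine transcription factors and, with the sign turned, 0.03 for antimicrobial genes, and the filter of the methods gave −1.68 for tuft cell genes. With the untreated 48 h library as reference, also chosen after seeing the data, medians became −0.24 for small intestinal and gastric markers, −0.18 for colonocyte genes, 0.16 for crypt stem cell genes, −0.46 for hormone genes, 0.50 for YAP and TEAD targets, 0.12 for glycolysis and hypoxia genes, −0.42 for xenobiotic enzymes, 1.68 for class II genes, −0.23 for antimicrobial genes and 0.21 for Wnt targets. Bins from the mean of both 48 h libraries gave 15.8% higher genes under 50 and, from 200 to 1000, 1.55% higher against 1.19% lower. The causes were not tested, apart from fewer genes or members passing a filter. Some lists within 0.1 of 0, such as fatty acid oxidation genes, turned sign under total count scaling.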

Other observations

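The genes in this section were chosen after their values were seen, and no test was run on them. Among genes at least 2-fold lower at 72 h were further enzymes and transporters of mature enterocytes. *Slc3a1*, a subunit of the cystine transporter, had 1310 counts in the untreated and 325 in the butyrate library at 72 h, a log2 fold of −1.88 (−2.06 to −1.71) that was 0.17 at 48 h, with 25.5% of its words shared. The apical peptidases *Enpep* and *Xpnpep2* had log2 folds of −1.42 and −1.17 at 72 h. At 48 h *Enpep* was higher with butyrate, at 0.83 (0.61 to 1.05), and against untreated at 48 h its log2 fold at 72 h was −0.15. The subunits of the bile acid exporter, *Slc51a* and *Slc51b*, had −1.28 and −1.69 at 72 h, against 0.04 and −0.66 at 48 h. Against untreated at 48 h, *Slc3a1*, *Xpnpep2*, *Slc51a* and *Slc51b* stood at −0.76, −0.41, −0.36 and −0.61, since their untreated levels were higher at 72 h. The reductase *Akr1c18* had 159 and 3 counts at 72 h, against 11 and 36 at 48 h, a log2 fold of −5.22 (−7.89 to −4.03), and *Akr1c14* and *Akr1c19* had −1.81 and −1.32 at 72 h but 0.37 and 0.39 at 48 h. The prostaglandin D synthase *Hpgds* had 476 and 134 counts and the prostaglandin receptor *Ptger4* had 516 and 187, whereas the prostaglandin E synthase *Ptges* had 88 and 208. *Lrat*, which stores retinol as ester, had 120 and 22 counts, a log2 fold of −2.27 (−3.05 to −1.65).

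Among genes at least 2-fold higher were others of matrix and cytoskeleton. The collagen-modifying genes *Plod2* and *P3h4* had log2 folds of 1.48 (1.22 to 1.75) and 1.27 (0.72 to 1.88), and the matrix genes *Ltbp4*, *Fbln1* and *Timp2* had 1.38, 1.14 and 1.06. *Tgm2*, a crosslinking transglutaminase, had 295 and 981 counts at 72 h, against 528 and 1556 at 48 h, a log2 fold of 1.86 (1.67 to 2.06). *Rdx*, which ties actin to the membrane, had 20 and 119 counts at 72 h, against 16 and 90 at 48 h, and the actin regulators *Evl* and *Enah* had 123 and 461, and 109 and 333, at 72 h. At 48 h *Enah* had 109 and 99 counts, so that only the butyrate library at 72 h stood apart. The list of actin cytoskeleton and muscle-type genes leaned the other way, with a median of −0.14 at 72 h over 24 tested genes. Of its intervals, 4 lay above 0 (27.7% of all genes) and 14 below 0 (28.6%). The lysosome-associated genes *Gpnmb* and *Rragd* had log2 folds of 1.88 (1.44 to 2.38) and 2.09 (1.60 to 2.67). The lysosome and autophagy list had a median of −0.05 over 35 tested genes, with 0 at least 2-fold higher (2.31% of all genes). Of its intervals, 9 lay above 0 (27.7%) and 14 below 0 (28.6%). *Igfbp2* and *Igfbp4*, which bind insulin-like growth factors, had 2.10 (1.65 to 2.64) and 1.55 (1.18 to 1.96). *Igfbp2* had 44 and 176 counts at 72 h, against 92 and 158 at 48 h. Against untreated at 48 h, its log2 fold at 72 h was 1.01.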
